A study of Homo sapiens with 32 samples.

Results

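Claudins and their partners at the tight junction were followed in 4 human prostate cancer cell lines in which CSN5, the catalytic subunit of the COP9 signalosome, was knocked down or inhibited. The 9 members are CLDN1, CLDN3, CLDN4, CLDN7, CLDN8, CLDN12, OCLN, TJP1 and TJP3. They were chosen by name, with earlier results of these data known, out of the 57445 gene identifiers in the 4 largest of the 6 count tables. All 9 were found once in every table, as the entries with these symbols. The 32 RNA sequencing libraries form 16 groups of 2. In the knockdown experiment LNCaP (androgen-dependent), C4-2 (a castration-resistant derivative of LNCaP), 22Rv1 (castration-resistant) and PC3 (derived from a bone metastasis) each had a scramble shRNA or an shRNA against CSN5, called shCSN5. In the inhibitor experiment cells received DMSO or CSN5i-3, a small-molecule CSN5 inhibitor, the dose being 5 µM for LNCaP and 22Rv1 and 10 µM for PC3. The C4-2 libraries of that experiment carry opposite labels: the descriptions give DMSO for the libraries titled C5i and 1 µM CSN5i-3 for those titled NT. They are given here only as titled C5i minus titled NT, with no statement on which pair was treated. PC3 shCSN5 replicate 2 has a characteristic that names a drug-treated cell, while its title and description name shCSN5, which were followed. Whether the libraries of a group came from separate cultures is not said in the labels, and p-values therefore cover only the spread between these libraries, which may be technical. Each line is a single established line, and in bulk RNA fewer cells of a type and less RNA per cell cannot be told apart.

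Tight junctions seal the space between neighbouring epithelial cells near their apical side. Claudins are 4-span membrane proteins that polymerise into the strands of the junction, and the mix of claudins sets how tight the barrier is and which ions pass. Occludin (OCLN) is a membrane protein of the same strands, and TJP1 and TJP3, known as ZO-1 and ZO-3, are scaffold proteins that tie the strands to actin. In the prostate these genes are expressed by epithelial cells, and CLDN3 and CLDN4 are the receptors of a bacterial enterotoxin and are often abundant in prostate carcinoma. Transcription factors of the ZEB and SNAI families repress several claudins and OCLN by binding E-boxes, and the GRHL family and ELF3 are activators in epithelia.

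Promoter sequences were taken from RefSeq for GRCh38.p14, from 250 bases before to 50 bases after a transcription start, and are printed for some members, picked on results below. CLDN3 and CLDN4 are neighbours on chromosome 7. CLDN4 passed in 7 treatment comparisons and CLDN3, the least repeatable member, in 1 of these. No difference between the changes of these neighbours was tested. CLDN7 was the member with the largest fitted difference between PC3 and LNCaP among those with counts in both lines. CLDN1 had the largest fitted increase with the inhibitor in LNCaP and 22Rv1. Capitals mark matches, on either strand, to 4 motifs: CAGGTG (an E-box bound by ZEB and SNAI factors), AACCGGTT (GRHL), TGANTCA (AP-1) and GGGCGG (the GC box). The CLDN3 window is chr7:73770221-73770520 on the minus strand, that of CLDN4 is chr7:73830746-73831045 on the plus strand, that of CLDN7 is chr17:7262429-7262728 on the minus strand (the second of its 2 starts), and that of CLDN1 is chr3:190322397-190322696 on the minus strand.
CLDN3: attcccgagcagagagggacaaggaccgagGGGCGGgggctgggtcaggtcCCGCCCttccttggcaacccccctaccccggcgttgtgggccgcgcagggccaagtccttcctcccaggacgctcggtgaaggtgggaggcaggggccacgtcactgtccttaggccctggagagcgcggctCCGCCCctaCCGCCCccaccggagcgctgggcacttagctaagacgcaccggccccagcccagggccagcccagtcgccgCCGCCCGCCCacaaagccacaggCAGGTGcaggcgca
CLDN4: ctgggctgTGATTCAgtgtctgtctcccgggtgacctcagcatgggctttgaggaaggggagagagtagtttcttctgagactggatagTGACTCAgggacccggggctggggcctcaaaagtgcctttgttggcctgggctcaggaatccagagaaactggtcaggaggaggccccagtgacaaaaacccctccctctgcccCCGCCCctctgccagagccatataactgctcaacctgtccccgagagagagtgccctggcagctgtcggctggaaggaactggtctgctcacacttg
CLDN7: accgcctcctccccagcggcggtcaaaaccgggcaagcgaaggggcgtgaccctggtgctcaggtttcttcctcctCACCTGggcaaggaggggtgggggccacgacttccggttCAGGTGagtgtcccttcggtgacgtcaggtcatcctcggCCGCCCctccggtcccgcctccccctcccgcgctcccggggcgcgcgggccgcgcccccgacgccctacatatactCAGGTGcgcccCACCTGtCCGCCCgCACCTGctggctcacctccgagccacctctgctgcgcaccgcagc
CLDN1: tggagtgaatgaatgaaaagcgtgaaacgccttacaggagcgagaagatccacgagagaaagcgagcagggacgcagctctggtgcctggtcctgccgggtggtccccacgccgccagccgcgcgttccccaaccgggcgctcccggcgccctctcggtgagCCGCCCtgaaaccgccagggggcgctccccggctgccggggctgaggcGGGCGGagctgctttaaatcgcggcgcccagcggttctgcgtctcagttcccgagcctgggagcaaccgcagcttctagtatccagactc
The CLDN3 window held 1 CAGGTG and 6 GGGCGG matches, of which one pair overlaps. That of CLDN4 held 1 GGGCGG match and 2 TGANTCA matches, which begin 242 and 161 bases before the start. The CLDN7 window held 5 CAGGTG matches and 2 GGGCGG matches, and the CLDN1 window held 2 GGGCGG matches. The window of the other CLDN7 start, chr17:7263164-7263463, is not printed and held no match to any of the 4 motifs. Of windows not printed, those of the 2 OCLN starts held 1 and 2 CAGGTG matches, and 1 window each of TJP1 and TJP3 held 1. Among 35116 RefSeq promoters of the same length, 20.6% held CAGGTG, 0.134% AACCGGTT, 7.71% TGANTCA and 45% GGGCGG. These matches describe the letters of the windows and were not tied to any change below.

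The knockdown libraries held 20.6 to 32.5 M counts each and the inhibitor libraries 29.5 to 50.9 M. COPS5, the gene of CSN5, fell with shCSN5, with log2 changes of -4.50 ± 0.26 in LNCaP, -3.56 ± 0.12 in C4-2, -2.68 ± 0.11 in 22Rv1 and -3.18 ± 0.12 in PC3. Throughout, changes are log2 differences ± SE with 2 libraries per group, p-values are edgeR quasi-likelihood values adjusted over all genes tested, and a gene rose or fell where that p was under 0.05. Levels are CPM, a gene's counts relative to the scaled library total, and replicate order carries no meaning. Defining luminal markers were present in LNCaP, C4-2 and 22Rv1, while PC3 had KLK3 at 1 and 0 counts in the scramble libraries. The list of 6 luminal genes still summed in PC3 to 693 CPM with scramble and 548 CPM with shCSN5. It summed there to 928 CPM with DMSO, where 1 gene was at 0, and to 590 CPM with CSN5i-3. Endothelial markers were at or near 0. Of 4 leukocyte genes, 2 were found in the inhibitor libraries of LNCaP and C4-2 and all 4 elsewhere. Their list summed to at most 3.32 CPM in 13 groups. It summed to 24.8 CPM in LNCaP with CSN5i-3, 52.1 CPM in C4-2 titled C5i and 15 CPM in C4-2 titled NT. CD68, a macrophage marker, had 25 and 24.6 CPM in the first of these, 51.1 and 52.5 CPM in the second and 6.80 and 6.78 CPM in the last, where LYZ had 8.40 and 8.03 CPM. The luminal list, 6 of 6 genes detected, summed to 4700 CPM with DMSO and 2569 CPM with CSN5i-3 in LNCaP, to 2169 and 2777 CPM in 22Rv1, and to 5012 CPM in titled NT and 2311 CPM in titled C5i of C4-2. Its genes did not move as one: in LNCaP with CSN5i-3 the secreted protease KLK3 fell (-2.86 ± 0.05), from 2522 and 2597 CPM to 353 and 351 CPM, while the keratins KRT8 (1.32 ± 0.10) and KRT18 (0.75 ± 0.06) rose. The list of 3 genes typical of PC3 (VIM, CAV1 and ANXA1) summed in LNCaP to 7.60 CPM with scramble and 27.2 CPM with shCSN5. In the LNCaP inhibitor libraries 2 of these genes were found, summing to 3.31 CPM with DMSO and 22.5 CPM with CSN5i-3. There VIM, a mesenchymal filament protein, rose with CSN5i-3 (2.76 ± 0.11). In 22Rv1 the same list summed to 26.4 and 61.6 CPM in the knockdown experiment and to 18.4 and 46.7 CPM in the inhibitor experiment, below its lowest sum in PC3 of 1430 CPM. The fibroblast list summed to 56.3 CPM with DMSO and 14.5 CPM with CSN5i-3 in PC3, and to at most 33.0 CPM elsewhere. Of its 5 genes, 3 were found in the inhibitor libraries of LNCaP and 2 in those of C4-2. The part of these shifts in the members' changes was not tested.

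Replicate libraries of a group stood apart in some groups, and the replicate differences of most members ran along GC content. Chi-square per gene between replicates, which counting error alone would put near 1, was lowest for PC3 DMSO at 1.72 and highest for LNCaP shCSN5 at 71.3, followed by 22Rv1 CSN5i-3 at 57.4. Replicate 1 minus replicate 2 of the 10% of genes with the highest GC content, less that of the 10% with the lowest, ran from -1.12 in LNCaP shCSN5 to 1.02 in 22Rv1 CSN5i-3. Across groups, that difference tracked the replicate difference of GC-rich CLDN4 (57.5% GC) with Pearson r = 0.991 over 16 groups, of CLDN3 (69.2% GC) with 0.985 over 16 and of TJP3 (63.2% GC) with 0.964 over 15. For TJP1 (44.8% GC) r was -0.96 and for OCLN (39.9% GC) -0.882, both over 16 groups. It was weaker for CLDN1 (41.5% GC), at -0.565 over 10 groups, and for CLDN8 (37.2% GC), at -0.442 over 7. These correlations are descriptions, the genes of a library sharing its depth and scaling, and no test was made. CLDN3 was the least repeatable member, with a median absolute replicate difference of 0.77 on the log2 scale over 16 groups, against 0.10 for TJP1. As an alternative chosen after seeing the data, the median change of genes of like GC content was subtracted, and 43 of the 44 called changes of the members kept their sign. The exception was CLDN1 in PC3 with CSN5i-3, at 0.20 before and -0.03 after.

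**Figure D1:**
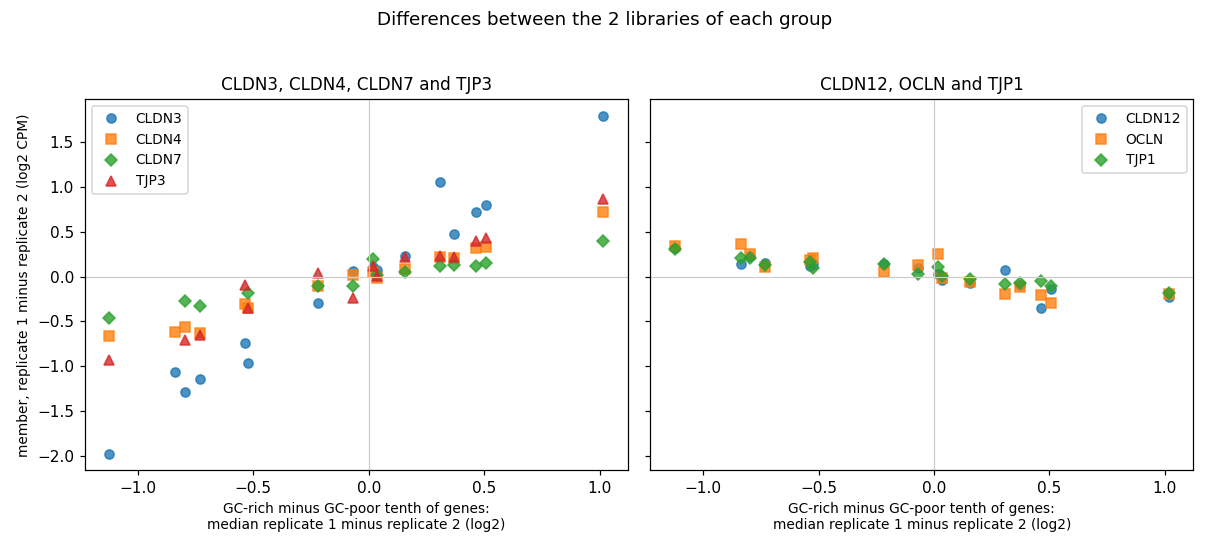
Difference between replicate 1 and replicate 2 of each group (log2 CPM, vertical axis) for the members with enough counts, against the difference of the 10% of genes with the highest minus the 10% with the lowest GC content in the same group (log2, horizontal axis). Each point is a group, and CLDN3, CLDN4, CLDN7 and TJP3 rise along the axis while OCLN, CLDN12 and TJP1 fall. CLDN1 and CLDN8 are not drawn.

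Without knockdown, LNCaP and PC3 differed in nearly the whole set. Of 9 members tested between their scramble libraries, which share a table, 1 was higher and 8 were lower in PC3. Of all genes tested 41.6% were higher and 38.2% lower there, 79.7% in either direction. Per kilobase of exon (GENCODE v29), the LNCaP order was led by CLDN7 at 188 CPM per kb, followed by CLDN4 at 36.2, CLDN12 at 24.4, TJP1 at 24.1 and CLDN3 at 14.8. OCLN (4.38), TJP3 (3.50), CLDN8 (2.72) and CLDN1 (0.0145) closed it. In PC3 the same scale put CLDN4 first at 24.2 CPM per kb and TJP1 next at 18.7, with CLDN12 at 10.1, CLDN1 at 1.81, CLDN3 at 1.44, OCLN at 0.321, CLDN7 at 0.198 and TJP3 at 0.0302. CLDN7, which had 389 and 386 CPM in the LNCaP libraries, had 0.576 and 0.24 CPM in PC3, a difference of -9.81 ± 0.24 (adjusted p = 3.34e-06), or -10.66 without PC3 scramble replicate 1. TJP3 was lower by -6.80 ± 0.23 (adjusted p = 6.84e-06), OCLN by -3.74 ± 0.16 (adjusted p = 1.41e-05) and CLDN3 by -3.38 ± 0.31 (adjusted p = 0.000195), the last at -3.96 without PC3 scramble replicate 2. CLDN8 was at least 105-fold lower in PC3, with 0 against 321 counts over the libraries of a group and a floor of 3 counts over the group. CLDN1 was the member higher in PC3, with 356 against 3 counts, a ratio of 120 with a 95% counting interval of 40.9 to 587. CLDN12 differed by -1.25 ± 0.10, CLDN4 by -0.57 ± 0.20 and TJP1 by -0.35 ± 0.10, and without either LNCaP scramble library TJP1 no longer passed (-0.37).

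The other junction genes and their regulators differed between these lines as well. ZEB1, a repressor of epithelial genes, was higher in PC3 by 11.14 ± 0.34, and SNAI2 by 3.92 ± 0.13. Of 5 claudin repressors tested 4 were higher and 1 lower in PC3, beside 79.7% of all genes called. E-cadherin (CDH1), the adhesion receptor of adherens junctions, was lower by -9.64 ± 0.14, and the epithelial transcription factor EHF by -7.45 ± 0.11. Of 10 epithelial transcription factors tested 8 were lower and 2 higher in PC3, and of 9 other tight junction membrane proteins 7 were lower and 2 higher. CLDN11 (12.79 ± 0.28) and CLDN14 (5.95 ± 0.70), claudins outside the chosen set, were higher in PC3.

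LNCaP, C4-2 and 22Rv1 were also compared with each other. Between 22Rv1 and C4-2 scramble libraries, which share a table, 4 of 9 members differed, against 65.2% of all genes tested. CLDN8 was lower in 22Rv1 by -2.71 ± 0.25 and TJP1 by -1.03 ± 0.09, CLDN12 by -0.36 ± 0.10, and CLDN1 was higher by 1.49 ± 0.37. The CLDN1 call was lost without C4-2 scramble replicate 1 (1.12) and with DESeq2 (1.48), and that of CLDN12 without 22Rv1 scramble replicate 1 (-0.29) and with total counts (-0.26). CLDN3, at -1.10, passed with DESeq2 and with no filter on low counts. Between C4-2 and LNCaP, whose libraries come from separate tables, 6 of 8 members tested differed, against 73.3% of all genes tested. CLDN7 (-1.23 ± 0.11), CLDN3 (-0.94 ± 0.30, or -1.58 without C4-2 scramble replicate 2), CLDN4 (-0.86 ± 0.17) and CLDN8 (-0.63 ± 0.16) were lower in C4-2, while CLDN12 (0.55 ± 0.10) and TJP1 (0.36 ± 0.09) were higher, the last not passing without either LNCaP scramble library (0.37). CLDN1, at 18 against 3 counts, had a ratio of 7.16 with a 95% counting interval of 2.09 to 37.9. In the order of the 4 scramble groups, CLDN4 ranges overlapped between 22Rv1, PC3 and C4-2. The OCLN range of 22Rv1 overlapped those of C4-2 and LNCaP, and the TJP3 range of C4-2 overlapped those of LNCaP and 22Rv1. Neighbours in the order of every other member had ranges that did not overlap, with 2 libraries each.

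**Figure D2:**
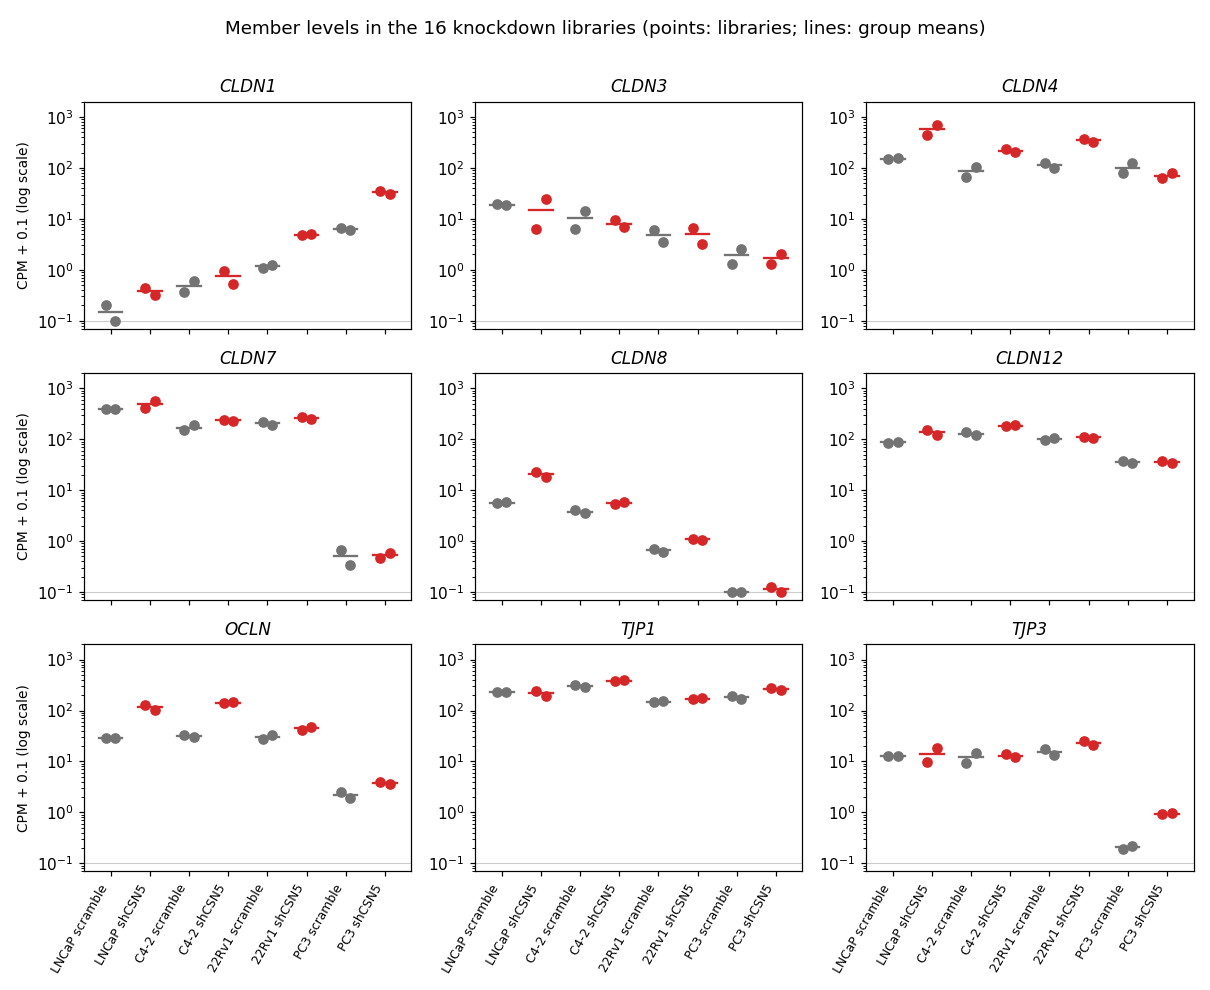
Level of each member in the 16 knockdown libraries (CPM plus 0.1, log axis) by line, scramble beside shCSN5, points being libraries and lines the group means. OCLN stands higher with shCSN5 in all 4 lines, and CLDN7, CLDN8 and TJP3 lie near the bottom of the axis in PC3 scramble libraries.

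With shCSN5 the members that passed the test rose in each line. The members were chosen with earlier results of these data known. Their shares and medians, here and with the inhibitor below, therefore describe the set and do not test it. In LNCaP, 4 of 8 members tested rose and the other 4 did not pass, where 18.3% of all genes tested rose and 35.7% were called in either direction. The members' median change was 0.50 against -0.01 over all genes. In C4-2, 4 of 9 rose (15.7% of all genes rose, 32% were called), with a median of 0.46 against -0.02. In 22Rv1, 5 of 9 rose (22.6% of all genes rose, 43.9% were called), with a median of 0.53 against 0.02. In PC3, 4 of 8 rose (10.3% of all genes rose, 16.7% were called), with a median of 0.35 against 0.04. OCLN passed in 4 of 4 lines, CLDN4 in LNCaP, C4-2 and 22Rv1, and CLDN1 in 22Rv1 and PC3. Passing in one line and not in another does not show a difference between them, which was tested separately below.

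With CSN5i-3 members rose and fell in LNCaP and PC3, and in 22Rv1 those that passed rose. In LNCaP at 5 µM, 6 of 9 members rose and 2 fell, where 26.2% of all genes tested rose and 26.5% fell, 52.6% in all. The members' median was 0.75 against 0.0041 over all genes. In 22Rv1 at 5 µM, 3 of 9 rose and the rest did not pass (11.8% of all genes rose, 24% were called), with a median of 0.62 against -0.04. In PC3 at 10 µM, 4 of 8 rose and 4 fell (38.5% of all genes rose and 38.5% fell, 77.1% in all), with a median of -0.26 against -0.01. In C4-2, titled C5i minus titled NT, 6 of 9 were higher and 2 lower (37% of all genes higher and 37.9% lower, 74.9% in all), with a median of 1.22 against -0.01, which is unchanged with CLDN8 at its bound. The 7 comparisons outside the C4-2 inhibitor libraries include shCSN5 in PC3, where a characteristic of replicate 2 names a drug-treated cell. Over these 7 OCLN was called higher in 6, CLDN4, CLDN12 and CLDN1 in 5 each, and CLDN7 and TJP3 in 3 each. Each of these 6 members was also higher in titled C5i than in titled NT of C4-2, and would count there as lower if the descriptions hold.

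**Figure D3:**
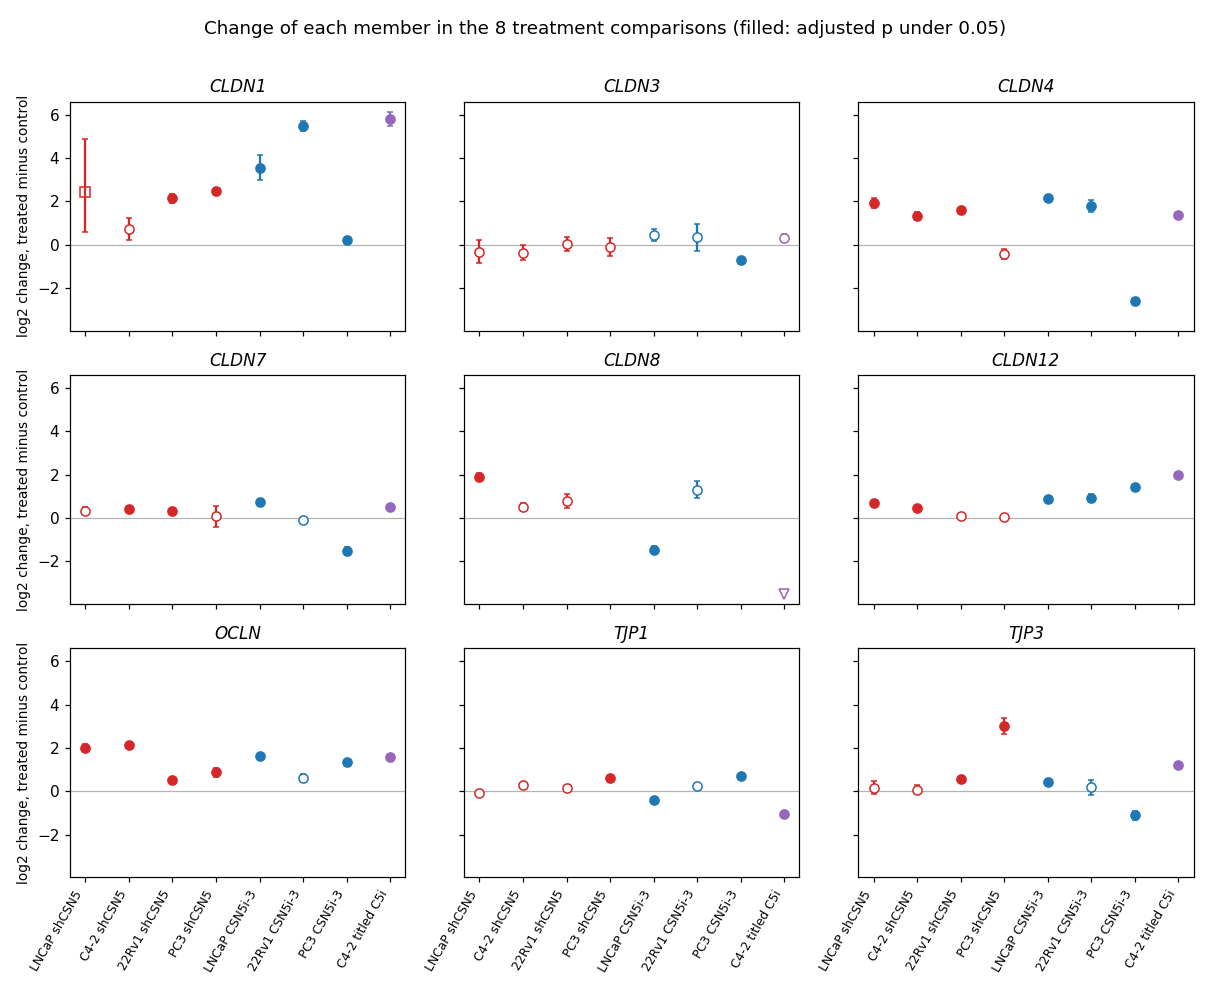
Change of each member in the 8 treatment comparisons (log2, treated or titled C5i minus control or titled NT, ± SE, 2 libraries per group). Filled points have an edgeR adjusted p under 0.05, the open square is a ratio of counts with its 95% interval, and the open triangle is a bound. CLDN4 and OCLN lie above 0 in LNCaP, C4-2 and 22Rv1, and CLDN4 lies at -2.58 in PC3 with CSN5i-3.

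CLDN4 rose in LNCaP, C4-2 and 22Rv1 with shCSN5, rose in LNCaP and 22Rv1 with the inhibitor, and fell in PC3 with the inhibitor. In LNCaP it stood at 151 and 153 CPM with scramble and at 440 and 697 CPM with shCSN5, a change of 1.92 ± 0.22 (adjusted p = 0.00173). In C4-2 it went from 67.1 and 103 to 234 and 203 CPM (1.32 ± 0.18, adjusted p = 0.00147). In 22Rv1 it went from 125 and 99.1 to 370 and 319 CPM (1.60 ± 0.11, adjusted p = 1.26e-06). The knocked-down libraries lay above the scramble libraries in these 3 lines with no overlap. In PC3 it had 63.0 and 78.0 CPM after knockdown, below the 79.9 and 123 CPM of scramble (-0.44 ± 0.23, adjusted p = 0.227), and the change passed without scramble replicate 1 (-0.72) and with no filter on low counts (-0.43). The effect in PC3 was lower than that in LNCaP by 2.43 ± 0.36 on the log2 scale (interaction -2.43, adjusted p = 0.00254).

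With the inhibitor, CLDN4 in LNCaP rose from 183 and 234 to 956 and 904 CPM (2.16 ± 0.11, adjusted p = 9.13e-06). In 22Rv1 it rose from 120 and 177 to 635 and 386 CPM (1.78 ± 0.29, adjusted p = 0.00771), and the difference between these lines at the same dose was 0.34 ± 0.37 and did not pass. In PC3 it fell from 210 and 203 to 34.8 and 34.4 CPM (-2.58 ± 0.03, adjusted p = 4.25e-54), with all 4 libraries apart by group. The PC3 inhibitor effect lay below the PC3 knockdown effect by -2.07 ± 0.26 (adjusted p = 0.000776), the 2 experiments being in separate tables. In C4-2 the titled NT libraries had 372 and 298 CPM and the titled C5i libraries 844 and 909 CPM (1.39 ± 0.10, adjusted p = 1.7e-07).

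CLDN3, which lies beside CLDN4, passed in 1 of 8 comparisons, PC3 with CSN5i-3, where it also fell, from 31.0 and 28.7 to 18.6 and 17.8 CPM (-0.71 ± 0.06, adjusted p = 2.76e-17). The LNCaP scramble libraries had 19.2 and 18.4 CPM, while knockdown gave 6.10 and 23.9 CPM, one below and one above both controls. Its change there was -0.31 ± 0.55, and without shCSN5 replicate 1 it was 0.36, without replicate 2 -1.59. In the other lines the knockdown and scramble ranges overlapped, at changes of -0.36 ± 0.33 in C4-2, 0.04 ± 0.32 in 22Rv1 and -0.10 ± 0.43 in PC3. In the inhibitor experiment the LNCaP controls had 30.0 and 58.2 CPM and the treated libraries 65.2 and 55.7 (0.45 ± 0.27), overlapping, as did those of 22Rv1 (5.64 and 13.7 to 19.1 and 5.54 CPM, 0.35 ± 0.62). In C4-2 titled C5i minus titled NT was 0.30 ± 0.19, from 40.6 and 24.6 to 36.1 and 44.2 CPM. With the replicate number as a block, CLDN3 was also called higher in LNCaP with CSN5i-3 and in C4-2 by title. PC3 control levels were 1.18 and 2.48 CPM with scramble and 31.0 and 28.7 CPM with DMSO, in separate tables.

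CLDN1, a claudin that the skin barrier needs, was scarce in LNCaP and C4-2. Its increases were the largest of the set in 22Rv1 with either treatment and in LNCaP with CSN5i-3, among the members fitted. In 22Rv1 it rose with shCSN5 from 0.969 and 1.16 to 4.78 and 4.84 CPM (2.14 ± 0.21, adjusted p = 1.31e-05). In PC3 it rose from 6.65 and 5.92 to 35.6 and 30.4 CPM (2.47 ± 0.16, adjusted p = 0.00283). Both libraries with shCSN5 exceeded both with scramble in each of these lines. In LNCaP it had 3 and 0 counts with scramble and 9 and 6 counts with shCSN5, a ratio of 5.38 with a 95% counting interval of 1.52 to 29. In C4-2 it had 7 and 11 counts with scramble and 21 and 10 counts with shCSN5 (0.72 ± 0.50, adjusted p = 0.314), overlapping.

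The inhibitor moved CLDN1 more in 22Rv1 and less in PC3 than the knockdown did. In 22Rv1 it went from 1.52 and 1.24 with DMSO to 57.9 and 66.5 CPM with CSN5i-3, a change of 5.49 ± 0.23 (adjusted p = 0.000305). That exceeded the knockdown effect of the line by 3.36 ± 0.26 (adjusted p = 0.00197). In LNCaP it went from 8 and 2 counts to 40 and 80 counts (3.55 ± 0.56, adjusted p = 0.00171), with no overlap, or 4.87 without DMSO replicate 1 and 2.84 without DMSO replicate 2. In PC3 it went from 21 and 19 to 23.9 and 22.1 CPM (0.20 ± 0.06, adjusted p = 0.0018), and this call was lost without CSN5i-3 replicate 1 (0.15) or DMSO replicate 2 (0.13). The PC3 inhibitor effect was below the knockdown effect by -2.19 ± 0.16 (adjusted p = 9e-05). In C4-2 the titled NT libraries had 6 and 2 counts, or 0.177 and 0.0545 CPM, and the titled C5i libraries 6.97 and 5.96 CPM (5.79 ± 0.33, adjusted p = 3.93e-08), or 6.79 without titled NT replicate 1 and 5.16 without replicate 2. CLDN16, whose gene overlaps CLDN1, rose with CLDN1 in PC3 with shCSN5 (4.39 ± 0.69) and in 22Rv1 with CSN5i-3 (5.97 ± 0.65), and the strand counted is not given in the sources used here, so reads of the overlapping genes may be shared.

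CLDN7, the most abundant claudin per kilobase in LNCaP, rose with shCSN5 in C4-2 and 22Rv1. In LNCaP it had 389 and 386 CPM with scramble and 406 and 559 CPM with shCSN5 (0.33 ± 0.16, adjusted p = 0.158). The change was 0.54 without shCSN5 replicate 1 and 0.10 without replicate 2, fits that rest on 1 knocked-down library and cannot settle the call. In C4-2 it rose from 149 and 187 to 243 and 223 CPM (0.43 ± 0.11, adjusted p = 0.0253), a call lost without either shCSN5 library (0.35 and 0.47) or scramble replicate 1 (0.31), and with no filter on low counts (0.44). In 22Rv1 it rose from 215 and 194 to 273 and 251 CPM (0.34 ± 0.08, adjusted p = 0.00659). None of these ranges overlapped. In PC3 it had 18 and 6 counts with scramble and 13 and 16 counts with shCSN5 (0.08 ± 0.48), overlapping.

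With the inhibitor CLDN7 rose in LNCaP from 369 and 420 to 675 and 651 CPM (0.75 ± 0.07, adjusted p = 0.000175). In 22Rv1 the controls stood at 188 and 228 CPM and the treated libraries at 219 and 166 (-0.11 ± 0.18), overlapping. The difference between the lines was 0.82 ± 0.22 (adjusted p = 0.0411), and it was lost without any of the LNCaP libraries or 22Rv1 DMSO replicate 2 (0.72 to 0.91). In PC3, where it was scarce, it fell from 3.02 and 2.64 to 0.962 and 1.04 CPM (-1.51 ± 0.19, adjusted p = 5.47e-10). This lay below the knockdown effect by -1.51 ± 0.48 (adjusted p = 0.0406), a call lost in 7 of the 8 fits that left out 1 library (-1.04 to -1.70 in these, and -2.39 without PC3 scramble replicate 1). In C4-2 titled NT had 324 and 299.9 CPM and titled C5i 427 and 459 CPM (0.50 ± 0.07, adjusted p = 6.11e-05). CLDN7 overlaps ELP5, so a part of its reads may belong to that gene.

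CLDN8, a claudin of tight epithelia such as the distal nephron, rose with the knockdown and fell with the inhibitor in LNCaP. With scramble it stood at 5.57 and 5.67 CPM, below the 22.8 and 18.4 CPM of shCSN5 (1.89 ± 0.19, adjusted p = 0.00116). In the inhibitor experiment 8.49 and 6.60 CPM with DMSO compared with 2.64 and 2.82 CPM in treated cells (-1.46 ± 0.16, adjusted p = 0.000319). All 4 libraries separated by group in each experiment, and the inhibitor effect lay below the knockdown effect by -3.45 ± 0.25 (adjusted p = 0.000151), a call kept without each library in turn.

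Elsewhere CLDN8 was lower in level. In C4-2 it went with shCSN5 from 3.93 and 3.43 to 5.23 and 5.68 CPM (0.52 ± 0.18, adjusted p = 0.058). In 22Rv1 it went with shCSN5 from 13 and 13 counts to 25 and 23 counts (0.81 ± 0.32, adjusted p = 0.0635), and with CSN5i-3 from 23 and 10 counts to 46 and 36 counts (1.31 ± 0.39, adjusted p = 0.0538). These ranges did not overlap although the tests did not pass, and the 22Rv1 inhibitor change passed without either CSN5i-3 library (1.24 and 1.40) or DMSO replicate 1 (1.95) and with no filter on low counts (1.32). The 22Rv1 knockdown change passed with total counts (0.87). The inhibitor effect in LNCaP lay below that in 22Rv1 by -2.81 ± 0.41 (adjusted p = 0.0042), or -3.43 without 22Rv1 DMSO replicate 1. In C4-2 titled C5i it had 0 counts in both libraries against 20 and 21 counts in titled NT, at least 11.2-fold lower with a floor of 3 counts over the group. In PC3 it had 1 count in 8 libraries.

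CLDN12, a claudin without the usual PDZ-binding tail, was called higher in 5 of the 7 comparisons outside the C4-2 inhibitor libraries. In LNCaP it rose with shCSN5 from 85.9 and 88.1 to 152 and 122 CPM (0.68 ± 0.16, adjusted p = 0.0199), a call lost without either scramble library (0.65 and 0.69). In C4-2 it rose from 136 and 122 to 178 and 190 CPM (0.46 ± 0.11, adjusted p = 0.0133), a call lost without shCSN5 replicate 2 (0.40) or scramble replicate 2 (0.36). In 22Rv1 (95.2 and 105 to 112 and 106 CPM, 0.10 ± 0.08) and PC3 (37.9 and 34.5 to 36.6 and 33.8 CPM, 0.04 ± 0.12) it did not pass. The PC3 value has the opposite sign to its levels, since levels were scaled over a whole table and changes over the libraries compared, and it turned sign with DESeq2 (-0.011). The effect in PC3 lay below that in LNCaP by -0.70 ± 0.18 (adjusted p = 0.0282), a call lost without either PC3 shCSN5 library (-0.62 and -0.51), PC3 scramble replicate 1 (-0.47) or either LNCaP scramble library (-0.68 and -0.71), with total counts (-0.53) and with DESeq2 (-0.67).

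With CSN5i-3 CLDN12 rose in LNCaP, 22Rv1 and PC3. In LNCaP it went from 149 and 135 to 258 and 273 CPM (0.90 ± 0.07, adjusted p = 6.31e-05). In 22Rv1 it went from 96.1 and 82.4 to 157 and 185 CPM (0.94 ± 0.16, adjusted p = 0.00853). In PC3 it went from 32.6 and 32.0 to 91.3 and 85.8 CPM (1.46 ± 0.04, adjusted p = 2.31e-38), and in no line did the groups overlap. In PC3 this exceeded the knockdown effect by 1.49 ± 0.12 (adjusted p = 0.000131). In 22Rv1 it exceeded the knockdown effect by 0.86 ± 0.17 (adjusted p = 0.0353), a call lost in 6 of the 8 fits without 1 library (0.73 to 0.94 in these). In C4-2 titled NT had 50.8 and 64.6 CPM and titled C5i 239 and 218 CPM (1.98 ± 0.11, adjusted p = 2.85e-08).

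**Figure D4:**
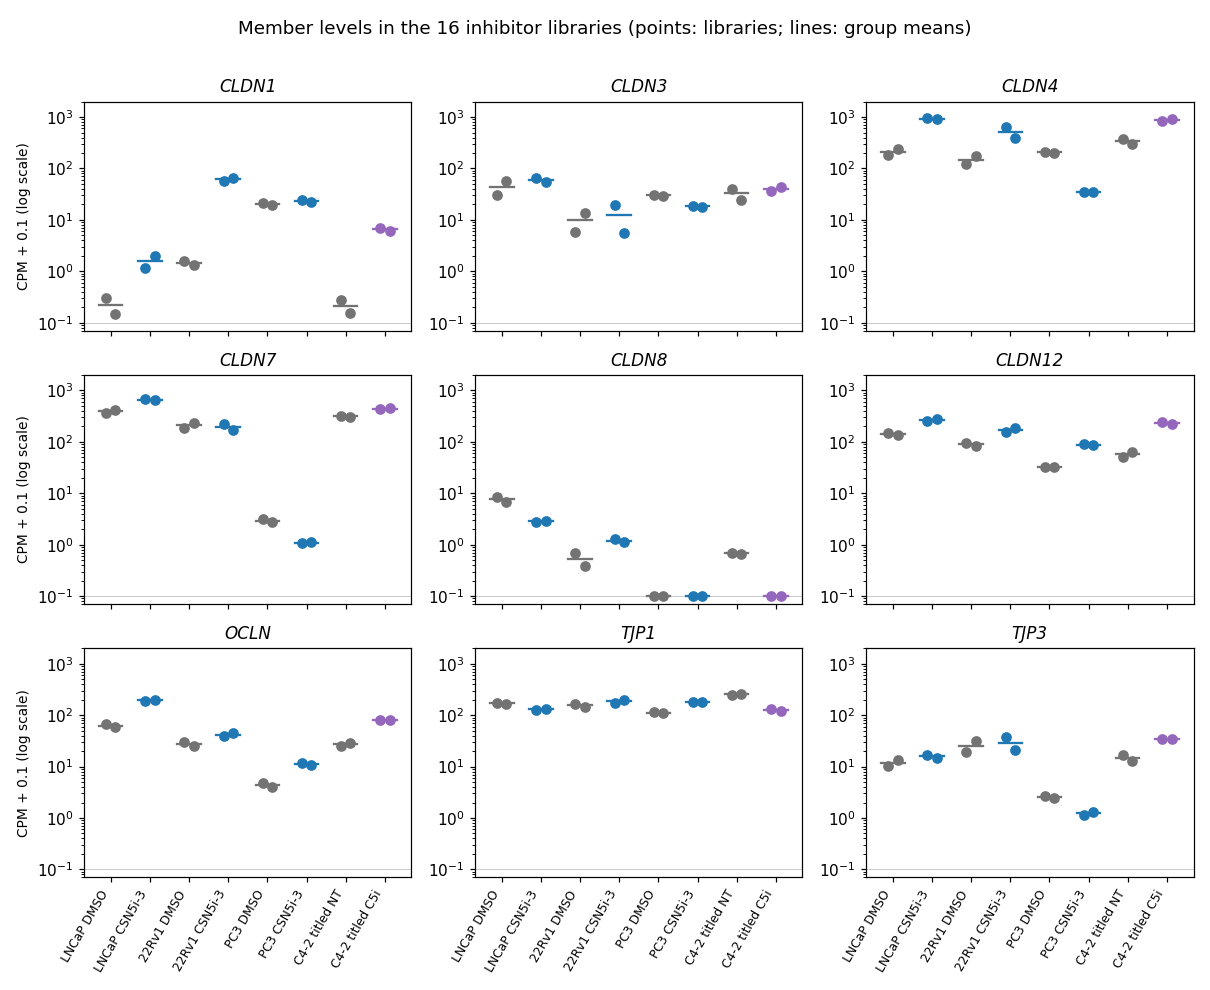
Level of each member in the 16 inhibitor libraries (CPM plus 0.1, log axis) by line, control or titled NT beside CSN5i-3 or titled C5i, points being libraries and lines the group means. CLDN12 and OCLN stand higher in the second group of every line, and CLDN4 stands lower in PC3 with CSN5i-3.

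OCLN was the member called higher most often. With shCSN5 it rose in LNCaP from 28.5 and 28.8 to 129 and 102 CPM (2.02 ± 0.17, adjusted p = 0.000663). In C4-2 it rose from 32.4 and 30.0 to 138 and 149 CPM (2.15 ± 0.11, adjusted p = 6.24e-05). In 22Rv1 it rose from 27.2 and 33.3 to 41.6 and 47.7 CPM (0.53 ± 0.12, adjusted p = 0.00476). In all of these lines the knocked-down libraries lay above the controls. In PC3, where it was scarce, it rose from 2.37 and 1.84 to 3.93 and 3.46 CPM (0.88 ± 0.20, adjusted p = 0.0404), a call lost without either shCSN5 library (0.80 and 0.96), without scramble replicate 2 (0.67) and with DESeq2 (0.84).

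The rise of OCLN differed by line. The knockdown effect in 22Rv1 lay below that in C4-2 by -1.64 ± 0.16 (adjusted p = 0.000407), a call kept without each library in turn. That in PC3 lay below that in LNCaP by -1.20 ± 0.25 (adjusted p = 0.0103), a call lost without PC3 shCSN5 replicate 2 (-0.98), PC3 scramble replicate 1 (-0.84) or either LNCaP scramble library (the range over all 8 fits was -1.37 to -0.84). With CSN5i-3 it rose in LNCaP from 66.3 and 57.5 to 190 and 198 CPM (1.65 ± 0.08, adjusted p = 8.18e-06). In 22Rv1 it went from 29.3 and 24.6 to 38.7 and 44.4 CPM (0.62 ± 0.18, adjusted p = 0.0538), with no overlap, and it passed with DESeq2 (0.66), with no filter on low counts (0.63) and without CSN5i-3 replicate 1 (0.77). The LNCaP effect exceeded that of 22Rv1 by 0.99 ± 0.18 (adjusted p = 0.0101), a call lost without LNCaP CSN5i-3 replicate 2 (0.95). In PC3 it rose from 4.67 and 3.94 to 11.5 and 10.6 CPM (1.36 ± 0.10, adjusted p = 4.64e-19). In C4-2 titled NT had 25 and 28.9 CPM and titled C5i 81.3 and 78.7 CPM (1.57 ± 0.10, adjusted p = 6.62e-08). OCLNP1, a near copy that could share reads with OCLN, rose in C4-2 with shCSN5 (1.51 ± 0.38).

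TJP1, the scaffold ZO-1, passed with the knockdown in PC3 and not in the other lines, and changed in opposite directions in LNCaP and PC3 with the inhibitor. It rose with shCSN5 in PC3 from 194 and 169 to 277 and 248 CPM (0.61 ± 0.11, adjusted p = 0.024), a call lost without shCSN5 replicate 1 (0.53). In LNCaP it had 234 CPM in both scramble libraries and 241 and 196 CPM with shCSN5 (-0.08 ± 0.15), and the difference between the effects in PC3 and LNCaP was 0.63 ± 0.18 (adjusted p = 0.0387). That call was lost without PC3 shCSN5 replicate 1 (0.68), LNCaP shCSN5 replicate 2 (0.48) or either LNCaP scramble library (0.63), and with DESeq2 (0.66). In C4-2 (319 and 292 to 378 and 396 CPM, 0.29 ± 0.10, adjusted p = 0.0555) and 22Rv1 (144 and 155 to 166 and 175 CPM, 0.16 ± 0.08) it did not pass, although the ranges did not overlap. It passed in both with total counts (0.28 and 0.23), in C4-2 without scramble replicate 1 (0.39) and in 22Rv1 without scramble replicate 2 (0.23).

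With CSN5i-3 TJP1 fell in LNCaP from 174 and 163 to 128 and 131 CPM (-0.38 ± 0.07, adjusted p = 0.00269). It rose in PC3 from 116 and 108 to 183 and 179 CPM (0.70 ± 0.03, adjusted p = 7.82e-29). Neither pair of groups overlapped. In 22Rv1 the controls had 167 and 145 CPM, the treated libraries 175 and 199 (0.26 ± 0.15, adjusted p = 0.247). The LNCaP effect lay below that of 22Rv1 by -0.67 ± 0.14 (adjusted p = 0.0197), a call lost without either LNCaP CSN5i-3 library, LNCaP DMSO replicate 1, 22Rv1 CSN5i-3 replicate 2 or 22Rv1 DMSO replicate 2 (-0.70 to -0.51), and with DESeq2 (-0.66). In C4-2 titled NT had 252 and 261 CPM and titled C5i 130 and 118 CPM (-1.04 ± 0.08, adjusted p = 2.86e-07).

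TJP3, the scaffold ZO-3, was nearly silent in PC3 scramble libraries. It had 3 counts in each of them and 29 in each shCSN5 library (3.02 ± 0.38, adjusted p = 0.011), and this exceeded the change in LNCaP by 2.77 ± 0.65 (adjusted p = 0.0175), a call lost without any PC3 library or LNCaP scramble replicate 1 (2.75 to 3.0). In 22Rv1 it rose with shCSN5 from 17.6 and 13.1 to 25 and 21.3 CPM (0.57 ± 0.15, adjusted p = 0.0107), a call lost without shCSN5 replicate 1 (0.47). In LNCaP (12.6 and 12.5 to 9.65 and 18.4 CPM, 0.18 ± 0.30) and C4-2 (9.39 and 14.7 to 14 and 12 CPM, 0.07 ± 0.21) the ranges overlapped and it did not pass.

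With CSN5i-3 TJP3 fell in PC3 from 129 and 114 counts to 49 and 50 counts (-1.10 ± 0.20, adjusted p = 1.27e-06), opposite in sign to the knockdown, by -4.06 ± 0.38 between the effects (adjusted p = 0.000217). In LNCaP it rose from 10.3 and 13.1 to 17 and 14.6 CPM (0.43 ± 0.14, adjusted p = 0.0359), a call lost without either CSN5i-3 library (0.30 and 0.52), with total counts (0.32) and with no filter on low counts (0.41). In 22Rv1 the controls had 19.3 and 31.6 CPM, the treated libraries 37.4 and 20.6 (0.19 ± 0.35), overlapping. In C4-2 titled NT had 16.6 and 12.7 CPM and titled C5i 34.5 and 33.6 CPM (1.22 ± 0.12, adjusted p = 4.54e-06). TJP3 overlaps APBA3, so a part of its reads may belong to that gene.

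Side by side, knockdown and inhibitor effects within a line were tested as a difference for each member, between separate tables. In LNCaP 1 of 9 members differed, CLDN8, against 21.3% of all genes tested. In 22Rv1 2 of 9 differed, CLDN1 and CLDN12, against 4.28%. In PC3 5 of 8 differed, CLDN1, CLDN4, CLDN7, CLDN12 and TJP3, against 39.1%. Between lines, the shCSN5 effect differed for 5 of 9 members between PC3 and LNCaP (24.1% of all genes) and for 1 of 9 between 22Rv1 and C4-2 (13.3%), and the CSN5i-3 effect differed for 4 of 9 between LNCaP and 22Rv1 (15.6%). A member that misses this test is not shown to act alike: for CLDN1 in LNCaP the inhibitor minus knockdown difference was 1.09 ± 1.61, and for CLDN4 0.15 ± 0.26.

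The remaining claudins were mostly below the filter. Of 18 other claudins, 1 to 5 were tested in each treatment comparison. CLDN15 rose with CSN5i-3 in LNCaP (1.53 ± 0.14), 22Rv1 (0.94 ± 0.20) and PC3 (1.75 ± 0.05), and CLDN14 rose in PC3 (2.06 ± 0.04). CLDN11 fell in PC3 with shCSN5 (-0.87 ± 0.09) and with CSN5i-3 (-2.57 ± 0.08).

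Some of the other membrane proteins of the junction passed the test as well. MARVELD2 (tricellulin), which seals the corners where 3 cells meet, rose with shCSN5 in LNCaP (1.46 ± 0.16) and C4-2 (0.80 ± 0.10). With CSN5i-3 it rose in LNCaP (0.35 ± 0.08) and PC3 (1.03 ± 0.08). Of this list 4 of 8 rose in LNCaP, 3 of 9 in C4-2 and 4 of 8 in 22Rv1 with shCSN5, and in PC3 1 of 7 rose and 1 fell, JAM3 (-1.65 ± 0.27). The shares of all genes called in either direction were 35.7%, 32%, 43.9% and 16.7%. With CSN5i-3 4 of 8 rose and 1 fell in LNCaP (52.6% of all genes called), in 22Rv1 the smallest edgeR adjusted p of the 8 tested was 0.0737, for F11R (24%), and in PC3 2 of 8 rose and 2 fell (77.1%). F11R (JAM-A), an adhesion receptor of the junction, rose with shCSN5 in LNCaP (0.89 ± 0.13), C4-2 (0.73 ± 0.10) and 22Rv1 (0.22 ± 0.08). With CSN5i-3 it rose in LNCaP (0.81 ± 0.08).

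Among 18 other scaffold proteins, AMOTL2, an angiomotin of the junction, rose with shCSN5 in C4-2 (0.55 ± 0.17) and 22Rv1 (1.14 ± 0.14). With CSN5i-3 it rose in LNCaP (1.71 ± 0.12) and 22Rv1 (2.18 ± 0.23). AMOT, of the same family, fell in C4-2 (-0.58 ± 0.14) and 22Rv1 (-1.03 ± 0.10) with shCSN5 and in LNCaP (-0.39 ± 0.11) and 22Rv1 (-0.68 ± 0.16) with CSN5i-3. In the list, 3 of 18 rose in LNCaP with shCSN5, 6 rose and 2 fell in C4-2, 3 rose and 3 fell in 22Rv1, and 2 rose and 1 fell in PC3, beside 35.7%, 32%, 43.9% and 16.7% of all genes called in these lines.

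CDH1, of the adherens junction and desmosome list, rose with shCSN5 in LNCaP (0.67 ± 0.12), C4-2 (0.58 ± 0.09), 22Rv1 (0.29 ± 0.08) and PC3 (1.95 ± 0.21). With CSN5i-3 it rose in LNCaP (0.93 ± 0.06). It fell in PC3 with CSN5i-3 (-1.59 ± 0.23), a value picked after it was seen. CDH1 was the only gene of 16 tested in that list to rise in PC3 with shCSN5, where 15 did not pass. Of all genes 10.3% rose there and 16.7% were called. With shCSN5, 6 of 16 in the list rose and 2 fell in LNCaP (35.7% of all genes called). In C4-2 7 of 17 rose and 3 fell (32%), and in 22Rv1 10 of 17 rose and 2 fell (43.9%). With CSN5i-3, 5 of 13 rose and 2 fell in LNCaP (52.6%). In 22Rv1 3 of 17 rose and 1 fell (24%), and in PC3 8 of 17 rose and 8 fell (77.1%). ELF3, an epithelial transcription factor, rose in each of the 7 comparisons outside the C4-2 inhibitor libraries. Its changes ran from 1.37 ± 0.03 in PC3 with CSN5i-3 to 3.03 ± 0.07 in LNCaP with CSN5i-3. In C4-2 titled C5i exceeded titled NT by 3.28 ± 0.08. EHF, of the same family, rose in PC3 with shCSN5 (1.42 ± 0.18) and fell there with CSN5i-3 (-2.75 ± 0.15). Of the epithelial transcription factors, 5 of 10 rose in LNCaP (35.7% of all genes called) and 3 of 10 in C4-2 (32%) with shCSN5. In 22Rv1 4 of 10 rose and 3 fell (43.9%), and in PC3 5 of 7 rose (16.7%). With CSN5i-3, 4 of 10 rose and 3 fell in LNCaP (52.6%), where GRHL1 rose (0.49 ± 0.11) and GRHL2 fell (-0.21 ± 0.06). In 22Rv1 5 of 10 rose (24%), and in PC3 4 of 7 rose and 3 fell (77.1%). SNAI2, a repressor of claudins, fell with shCSN5 in C4-2 (-1.80 ± 0.16) and 22Rv1 (-1.89 ± 0.44) and rose in LNCaP with CSN5i-3 (1.93 ± 0.25). Of 3 claudin repressors tested in that last comparison 1 rose and 2 fell, SNAI1 (-0.69 ± 0.25) and TWIST1 (-0.46 ± 0.14). Of all genes 52.6% were called there. SNAI2 fell in PC3 with CSN5i-3 (-0.79 ± 0.09), where ZEB1 rose (0.64 ± 0.05).

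Likeness of pattern was described by Pearson r of log2(CPM + 1) over the 16 group means, among 10337 genes with a mean of at least 5 CPM (10338 for CLDN8), as a description in which groups share lines and tables. CLDN12 was most like OCLN (0.922) and AUH (0.917), and OCLN was most like FBXO25 (0.946) and TNFRSF10D (0.944). CLDN1 was most like ITGA2 (0.903) and AMOTL2 (0.885), CLDN4 like GBA2 (0.887) and FRAT1 (0.876), and TJP1 like ACSL3 (0.889) and PKP4 (0.869). CLDN7, with its gap between PC3 and the other lines, was most like MAGEA3 (0.99) and TSTD1 (0.99), and TJP3 was most like SAMD11 (0.982) and INPP5J (0.98). CLDN3 was most like ABHD17A (0.97) and VPS51 (0.954), and CLDN8 like CDH26 (0.925) and KLHL1 (0.918). Among pairs of members CLDN7 and TJP3 had r = 0.933 and CLDN7 and OCLN r = 0.887.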

How the data were processed

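Values are raw counts per gene and library, which the authors deposited as 6 tables after processing with Partek Flow per the submitters' processing notes. No aligner, genome build or counting strand is named in the sources used here. Groups follow titles and descriptions. The 9 members and all gene lists were chosen with earlier results of these data known. The 4 largest tables list 57445 Ensembl identifiers each. The inhibitor tables of LNCaP (21549 symbols) and C4-2 (16603) list no gene whose maximum is below 3 counts.

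Every gene of a comparison was tested with edgeR 4.0.16 in R 4.3.3 by its quasi-likelihood F test. Settings were TMM scaling, a filterByExpr minimum count of 10, 2 residual degrees of freedom for a treatment, and a Benjamini-Hochberg adjusted p under 0.05. SE was taken as the absolute log2 change over the root of F. Differences between effects were contrasts over 8 libraries. Where a group had no counts, a floor of 3 counts over the group gave a bound, and where it had 1 to 3 counts the ratio is given with its 95% interval. Both cover counting error only. Every member is named. Other lists contribute up to 2 higher and 2 lower genes per comparison, by smallest adjusted p, and each member the 2 genes most alike. Some genes that this rule picks are not reported here. Alternatives were total counts, DESeq2 1.42.0, no filter, the replicate number as a block, and leaving out each library. The code was tested on simulated counts.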

Additional observations from a re-analysis of the deposited data

Results flagged for a closer look

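Each value here is a difference between 2 effects of the same treatment in different lines that passed the edgeR test (log2 ± SE, adjusted p under 0.05). No explanation was tested. For shCSN5, the effect in PC3 minus that in LNCaP was -2.43 ± 0.36 for CLDN4, the one of the 5 calls in this contrast that held without each library in turn. It was -0.70 ± 0.18 for CLDN12, -1.20 ± 0.25 for OCLN, 0.63 ± 0.18 for TJP1 and 2.77 ± 0.65 for TJP3. The shCSN5 effect in 22Rv1 minus that in C4-2 was -1.64 ± 0.16 for OCLN, a call that also held without each library. For CSN5i-3 at 5 µM, the effect in LNCaP minus that in 22Rv1 was 0.82 ± 0.22 for CLDN7, -2.81 ± 0.41 for CLDN8 (held without each library), 0.99 ± 0.18 for OCLN and -0.67 ± 0.14 for TJP1. The libraries of LNCaP and 22Rv1 in the inhibitor experiment come from separate tables.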

How the results depend on the processing

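Depth limits CLDN8 in PC3 and CLDN1 in LNCaP and C4-2, which had few counts, and with 2 libraries per group 1 library can decide a call. Leaving out each library in turn moved the genes called to 2085 to 11260 with shCSN5 in LNCaP, 2941 to 3288 in C4-2, 1048 to 4566 in PC3 and 6360 to 11468 with CSN5i-3 in LNCaP. The members called ran from 3 to 8 in LNCaP, 2 to 4 in C4-2 and 2 to 5 in PC3 with shCSN5, 4 to 6 in 22Rv1 with CSN5i-3, and 4 to 7 between 22Rv1 and C4-2 scramble libraries. For differences between effects they ran from 1 to 5 (PC3 minus LNCaP, 1916 to 4930 genes), 1 to 2 (22Rv1 minus C4-2, 984 to 3223 genes), 1 to 4 (CSN5i-3, LNCaP minus 22Rv1, 1234 to 3471 genes), 1 to 7 (inhibitor minus knockdown in LNCaP, 1501 to 7862 genes) and 1 to 2 (the same in 22Rv1, 43 to 1500 genes), with 4337 to 8161 genes for the same in PC3.

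Members that did not pass in the main fit turned sign without 1 library. With shCSN5 these were CLDN3 in LNCaP (-1.59 to 0.36), C4-2 (-0.81 to 0.27), 22Rv1 (-0.57 to 0.46) and PC3 (-0.56 to 0.44), TJP3 in LNCaP (-0.34 to 0.57) and C4-2 (-0.19 to 0.39), TJP1 in LNCaP (-0.25 to 0.080), and CLDN7 (-0.42 to 0.89) and CLDN12 (-0.085 to 0.11) in PC3. With CSN5i-3 in 22Rv1 they were CLDN3 (-0.76 to 1.12), CLDN7 (-0.27 to 0.035) and TJP3 (-0.26 to 0.58), in C4-2 by title CLDN3 (-0.018 to 0.70), and between scramble libraries OCLN in 22Rv1 minus C4-2 (-0.19 to 0.10) and TJP3 in C4-2 minus LNCaP (-0.41 to 0.20). For shCSN5 in LNCaP, CLDN3, TJP1 and TJP3 were called in either sign, depending on which shCSN5 library was left out. Such a fit rests on 1 library of the group and cannot settle the sign.

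With no filter on low counts, genes called were 3139 in C4-2 and 4273 in PC3 with shCSN5 and 2028 for inhibitor minus knockdown in 22Rv1, and members called were 5 in 22Rv1 with CSN5i-3, 7 between 22Rv1 and C4-2 scramble libraries and 2 for the shCSN5 effect in 22Rv1 minus C4-2. With DESeq2, 3 members were called for the shCSN5 effect in PC3 minus LNCaP, and CLDN12 in PC3 turned to -0.011. With total counts, under which the median of all genes ran from -0.20 (C4-2 by title) to 0.17 (shCSN5 effect, PC3 minus LNCaP), OCLN in 22Rv1 minus C4-2 turned to 0.066, and the members differing there split into 2 higher and 2 lower rather than 1 and 3. With the GC median subtracted, CLDN1 in PC3 with CSN5i-3 turned to -0.031. With the replicate number as a block, genes called were 8180 in PC3 with shCSN5, 1237 for the shCSN5 effect in 22Rv1 minus C4-2, 19 (1 member) and 10074 (8 members) for inhibitor minus knockdown in 22Rv1 and PC3, and 815 (1 member) for CSN5i-3 in LNCaP minus 22Rv1. The labels do not say that numbers pair libraries, and same-numbered libraries deviated together with r from -0.64 to 0.54 over 8 comparisons of 2 pairs each. The cause was not tested for any of these.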

Other observations

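Levels of some members in the 2 experiments are given side by side, with no test, since the tables are separate. In PC3, CLDN7 had 18 and 6 counts with scramble and 154 and 129 counts with DMSO, TJP3 had 3 and 3 counts against 129 and 114 counts, and CLDN3 had 1.18 and 2.48 CPM against 31.0 and 28.7 CPM. In C4-2, CLDN8 had 3.93 and 3.43 CPM with scramble and 0.591 and 0.572 CPM in titled NT, whose treatment is uncertain. CLDN12 in C4-2 had 136 and 122 CPM with scramble and 50.8 and 64.6 CPM in titled NT.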
